A study of Mus musculus with 8 samples.

Results

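The DEAD and DEAH box RNA helicases are described here in mouse pancreatic beta cells 7 days after deletion of Adar was induced. Members were the rows whose name is Ddx or Dhx with a number and at most 1 letter after it, with a mean of at least 10 normalized counts over the 8 libraries. This gave 47 genes of the 44343 in the table, 33 named Ddx and 14 named Dhx. The pattern matched 53 rows, of which 5 (Ddx58, Dhx58, Dhx9, Ddx3x and Ddx3y) were left out by name and 1, Ddx43, by its mean of 7.24. The members closest to the limit were Ddx4 with a mean of 16.4, Ddx11 with 56.3 and Ddx59 with 70.1. The mean that chose them was taken over both genotypes together. KO libraries came from MipCreER; Adar floxed/floxed; R26R-EYFP mice, and HET libraries from MipCreER; Adar floxed/+; R26R-EYFP mice, 4 libraries each. MipCreER puts a Cre that needs tamoxifen under an insulin gene promoter. R26R-EYFP turns on a yellow fluorescent protein in cells where Cre has acted. All mice received 2 doses of 8 mg tamoxifen at an age of 1 month, so HET cells also carried Cre, the reporter and tamoxifen exposure, and had lost 1 Adar allele where Cre acted. Islets were dissociated and their YFP-positive cells collected by flow sorting. The number of mice behind a library is not in the labels, nor whether animals were pooled. All p-values therefore rest on the spread among libraries, part of which may be technical. By the sex-linked reads given below, not all libraries of a group came from the same animals.

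DEAD and DEAH box proteins are enzymes that use ATP to unwind short RNA helices or to strip proteins from RNA, and both groups are named after a run of amino acids in their ATP-binding core. DEAD box proteins mostly pry apart short duplexes where they bind, while DEAH box proteins move along a strand. Between them they serve splicing, ribosome assembly, messenger RNA export, translation and decay in most cells, and a few are specific to the germ line or are switched on by interferon. Adar encodes an enzyme that converts adenosine into inosine within double-stranded RNA, which the receptors Ifih1 (MDA5) and Ddx58 (RIG-I) otherwise can sense.

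Ddx60, an interferon-induced helicase of antiviral defence, was the member on which the genotype comparison turned. It lies on mouse chromosome 8 (ENSMUSG00000037921, mm10, positions 61928087 to 62038244, plus strand) and overlaps no other annotated gene. The 250 bases before its start site are shown because they hold 2 matches of a motif, GAAA followed by any 2 letters and GAAA again, which is the core of the interferon-stimulated response element. They are chr8:61927837-61928086 of GRCm38.p6, plus strand, from RefSeq's promoter table, with both matches in capitals.
Ddx60: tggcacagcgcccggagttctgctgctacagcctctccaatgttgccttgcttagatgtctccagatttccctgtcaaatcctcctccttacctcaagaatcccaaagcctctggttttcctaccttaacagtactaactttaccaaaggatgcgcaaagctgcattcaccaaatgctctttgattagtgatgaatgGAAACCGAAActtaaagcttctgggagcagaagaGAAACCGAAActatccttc
The matches end 44 and 10 bases before the start and both continue as the 12 letters GAAACCGAAACT. Of 32851 RefSeq windows reaching from 250 bases before to 50 bases after a start, 3.44% held the 10-letter motif on either strand and 0.225% held it at least 2 times. The longer form that continues with CT stood in 0.271% of the windows, and 5 windows held it at least 2 times. A window was on hand for 42 of the 47 helicases, and 2 of these 42 held the 10-letter motif, Ddx60 and Ddx49, and Ddx49 is named after its match was seen. In Ddx49 the match lay near the far end of a window, 246 to 237 bases before a start. A match describes the letters and does not show a binding site.

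The libraries held 5.37 to 15.9 M reads in KO and 5.93 to 12.8 M reads in HET. KO libraries 1 and 2 stood apart under the deposited scaling. Abundant genes are used below to mean the 6697 genes whose mean was 200 or more. Their median level, as log2 relative to each gene's mean over libraries, was 0.88, 0.96, -0.77 and -0.56 in KO libraries 1 to 4, against -0.25, 0.00, 0.22 and -0.46 in HET libraries 1 to 4. By Xist and Y-linked Ddx3y, KO libraries 3 and 4 held almost only female reads and HET library 1 almost only male reads, while the other 5 libraries held both. The share of mitochondrial reads was 7.23% to 17.4% in KO and 6.90% to 8.35% in HET libraries. The 8 beta cell markers each had a mean of at least 10, with summed levels of 219254 to 1345799 normalized counts in KO and 618789 to 1273946 in HET libraries. The 7 immune markers summed to 98.4 to 181 in KO and 133 to 180 in HET libraries, and the 3 alpha cell markers to 519 to 1004 in KO and 188 to 534 in HET libraries, with none of them at 0 in all libraries. Of the other cell types, the 2 delta cell markers summed to 353 to 589 in KO and 150 to 490 in HET libraries, the PP cell marker to 32.7 to 245 in KO and 36.0 to 73.8 in HET, and the 2 ductal markers to 19.9 to 37.5 in KO and 36.3 to 208 in HET libraries. Acinar markers, 4 of 5 in the table, summed to 18.8 to 60.7 in KO and 30.0 to 46.2 in HET, the 2 endothelial markers to 36.2 to 93.8 in KO and 56.6 to 101 in HET, and the 3 stromal markers to 34.9 to 148 in KO and 77.1 to 115 in HET libraries. The part of other cell types in the results was not tested. Adar itself had 615 to 4030 normalized counts in KO and 744 to 1187 in HET libraries. A gene total counts all exons, the deleted ones and the rest, so it does not check the genotype labels.

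Ddx60 rose in beta cells with both Adar alleles floxed, and it was the only one of the 47 helicases called by limma under the deposited scaling. It had 8797, 2318, 892 and 2918 normalized counts in KO libraries 1 to 4, against 265, 390, 245 and 249 in HET libraries 1 to 4. All 4 KO libraries were above all 4 HET libraries, although the KO values spread over a wide range. Means were 3731 ± 3482 in KO and 287 ± 69.1 in HET (SD, n = 4 each). limma on log2(value + 1) gave a log2 fold change of 3.26 ± 0.56 (SE; Benjamini-Hochberg adjusted p = 2.21e-06), which had rank 35 from the top among 21498 genes tested. For the median gene this fit used 1 spread shared by genes of like level (median total degrees of freedom 128988). Its SE and p are therefore not taken as a measure of the spread of Ddx60 itself among the libraries. In whole reads Ddx60 was counted 9814, 1791, 809 and 4901 times in KO libraries and 207, 312, 286 and 307 times in HET libraries. Among the 47 helicases it ranked 2, 8, 6 and 2 by normalized count in the KO libraries and 28, 25, 35 and 27 in the HET libraries. It took 10.3%, 2.74%, 3.86% and 9.26% of the helicases' reads in KO libraries, against 0.849%, 1.01%, 0.539% and 0.894% in HET libraries. This share needs no scaling between libraries, and its groups did not overlap either.

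**Figure D1:**
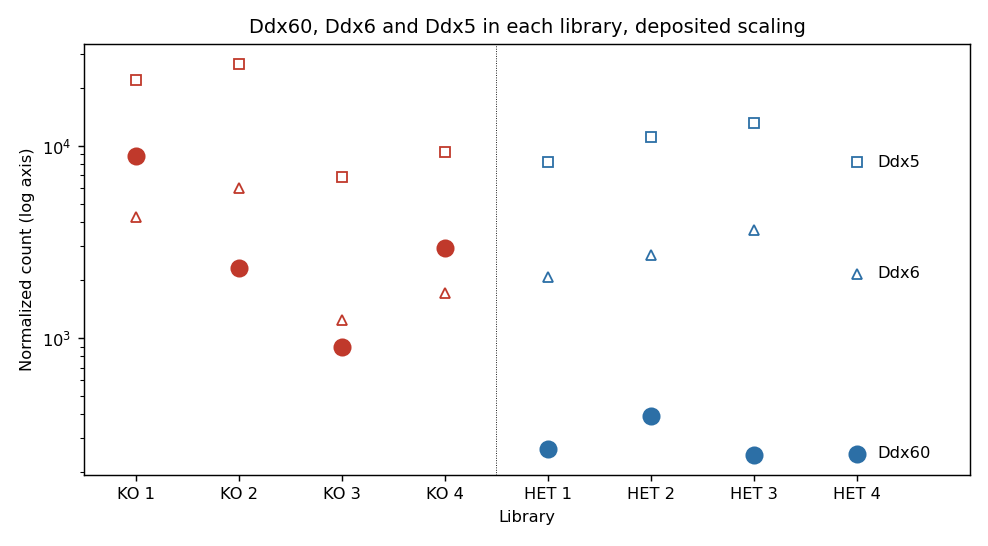
Normalized counts (log axis) of Ddx60 (filled circles), Ddx6 (open triangles) and Ddx5 (open squares) in each KO library (red, left) and each HET library (blue, right), each point 1 library. Ddx60 lay at 892 or more in all KO libraries and at 390 or less in all HET libraries, while the KO and HET ranges of Ddx5 and Ddx6 overlapped.

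The ratio of Ddx60 to Ddx5, the most abundant helicase, was 0.399, 0.0867, 0.130 and 0.316 in KO libraries and 0.0324, 0.0351, 0.0187 and 0.0303 in HET libraries. Of all tested genes, 0.921% were called higher and 0.0233% lower by limma, and none of the 47 helicases was called lower. Without adjustment the same test had 1 helicase higher and 0 lower at p under 0.05, beside 4.05% and 2.7% of all genes. edgeR on the recovered reads called 1 helicase higher and 0 lower, with 4 higher and 0 lower unadjusted, and DESeq2 called 1 higher and 0 lower, with 5 higher and 0 lower unadjusted. edgeR called 0.673% of all its genes higher and 0.0343% lower, with 4.75% and 1.91% unadjusted. Of the 16822 genes with an adjusted p from DESeq2, 1.25% were called higher and 0.0178% lower, with 8.4% and 0.589% unadjusted. Ddx60 was called in 30 of 31 alternative settings, with log2 fold changes between 2.69 and 3.97. The exception compared KO libraries 1 and 2 with HET libraries 2 to 4, all with reads of both sexes, with factors from abundant genes. There its log2 fold change was 2.97 (limma, adjusted p = 0.129) and 0.0% of 7236 genes were called higher or lower, while an unadjusted p under 0.05 was reached by 876 higher and 865 lower genes.

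The other 46 helicases followed the general level of each library under the deposited scaling. Their median log2 fold change was 0.34, with a range from -0.26 to 0.86, and their limma adjusted p-values ran from 0.745 to 0.998. The median over all tested genes was 0.05, and over abundant genes it was 0.24. Counting Ddx60, 44 of the 47 fold changes were above 0, as were 54.3% of all tested genes and 76.2% of abundant genes. Relative to the HET mean of each gene, the median of the 46 was 1.16, 1.14, -0.53 and -0.26 (log2) in KO libraries 1 to 4, against -0.08, 0.14, 0.30 and -0.36 in HET libraries 1 to 4. Abundant genes had corresponding medians of 0.99, 1.08, -0.65 and -0.44 in KO and -0.12, 0.12, 0.35 and -0.34 in HET libraries. Thus KO libraries 1 and 2 were high, and KO libraries 3 and 4 low, for both the helicases and abundant genes in general. For 44 of the 46, KO libraries 1 and 2 were both above every HET library, as for 91.3% of abundant genes and 48.9% of all tested genes. Only Ddx60 had KO and HET groups that did not overlap, where 2.19% of all tested genes had all KO above all HET libraries and 0.893% had all KO below. The log2 SD of the 46 helicases had a median of 0.914 over KO libraries and 0.329 over HET libraries. In these bulk samples, fewer cells of a type and less RNA per cell cannot be told apart.

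Limited to the 5 libraries with reads of both sexes (KO 1 and 2, HET 2 to 4), limma called 43 of the 47 helicases higher and 0 lower, beside 42.3% of all tested genes higher and 10.2% lower. The KO libraries in that set are the 2 with the high general level. With factors from abundant genes, as described below, the same 5 libraries gave 0 calls.

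**Figure D2:**
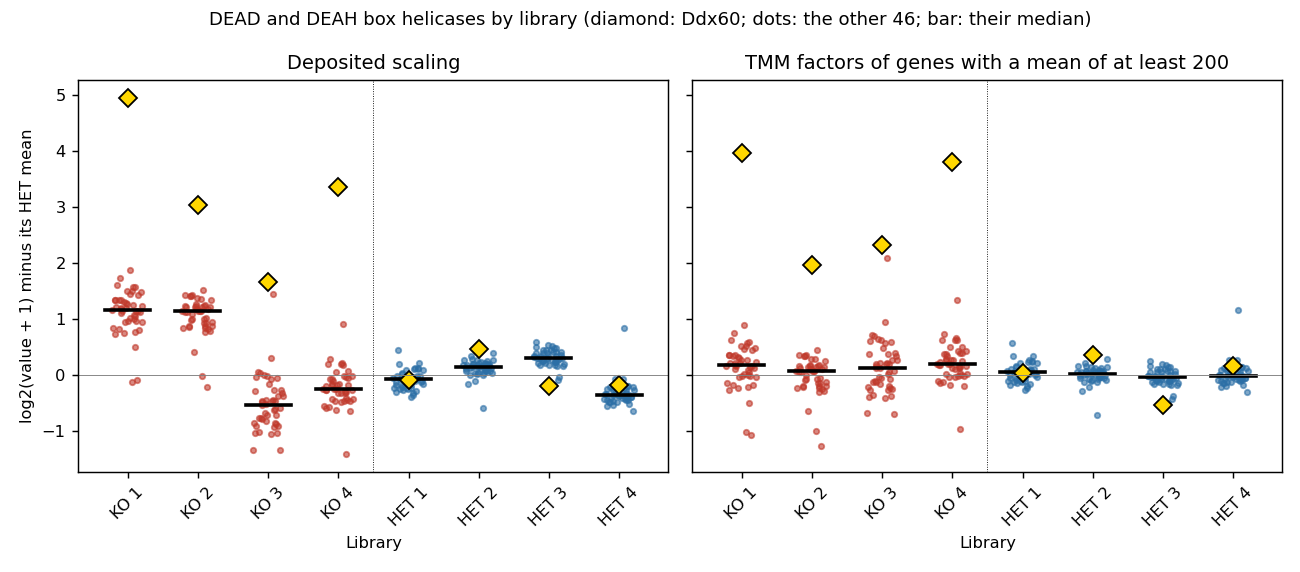
Each helicase's log2(value + 1) minus its HET mean in the 4 KO libraries (red, left) and the 4 HET libraries (blue, right), under the deposited scaling (left panel) and with TMM factors of the abundant genes (right panel). Diamonds are Ddx60, dots the other 46 helicases and bars their median, which runs from -0.53 to 1.16 over KO libraries in the left panel and from 0.06 to 0.19 in the right panel.

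The comparison was repeated among the abundant genes, with TMM scaling factors (trimmed means of log ratios between libraries) computed from them, which puts their median level within 0.01 (log2) of the HET mean in each library. Its values are the deposited normalized counts divided by these factors, and all fold changes below are log2, KO over HET. In this second scaling 37 of the 47 helicases were tested. The medians of the 46 without Ddx60 became 0.17, 0.06, 0.12 and 0.19 in KO libraries 1 to 4 and 0.05, 0.02, -0.04 and -0.02 in HET libraries 1 to 4. Their log2 SD then had a median of 0.219 over KO and 0.129 over HET libraries. limma called 5 helicases higher (Ddx60, Ddx10, Dhx36, Dhx15 and Ddx52) and 0 lower, with 7 and 2 at an unadjusted p under 0.05. Of all genes in this fit, 6.03% were called higher and 4.24% lower, and 15.6% and 15.3% had an unadjusted p under 0.05. Groups did not overlap for 7 helicases with KO above HET, the 5 called and Ddx1 and Ddx5, and for 2 with KO below HET, Dhx8 and Dhx32. Among all genes in this fit, 11.7% had all KO above all HET libraries and 10.3% all KO below. The median fold change of the 37 was 0.10 (log2), beside -0.00 over all genes tested. Of the 37, 27 were above 0 under both scalings, 2 below 0 under both, and 8 above 0 under the deposited scaling and below 0 under the second. In the second fit 49.8% of all genes were above 0.

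**Figure D3:**
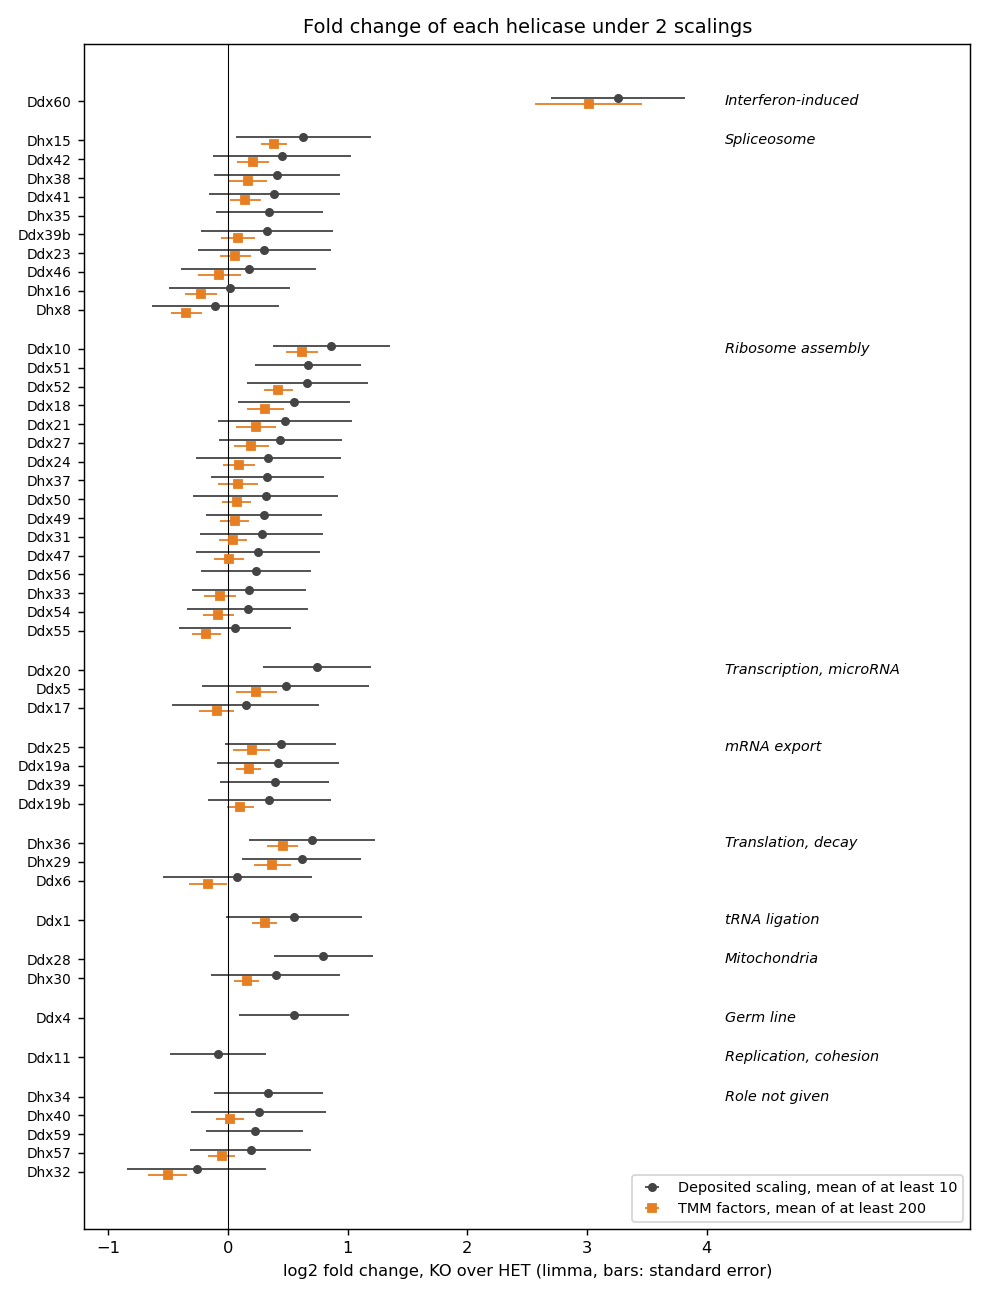
log2 fold change of KO over HET for each helicase, grouped by role, with bars for the limma standard error (n = 4 each), under the deposited scaling (circles, 47 genes) and with TMM factors of the abundant genes (squares, 37 genes). Ddx60 stands at 3.26 and 3.01, and the others lie between -0.50 and 0.86, with a smaller standard error for the squares.

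In the second scaling Ddx60 had 4901, 1219, 1562 and 4416 in KO libraries, against 322, 398, 214 and 350 in HET libraries. Its log2 fold change there was 3.01 ± 0.45 (SE; limma, adjusted p = 0.00654), and it was called in each of the 8 fits that left out 1 library. The other 4 calls were of smaller size and were lost in several of these fits. With a block for the replicate number, Ddx60, Ddx10 and Dhx36 stayed called. Dhx15 and Ddx52 did not (limma, adjusted p = 0.0680 and 0.0583).

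Ribosome assembly was the largest role group, with 16 helicases that act on ribosomal RNA precursors in the nucleolus. All 16 were above 0 under the deposited scaling, with log2 fold changes from 0.06 to 0.86 and none called, and 11 of the 14 tested in the second scaling were above 0, with 2 called. Among abundant genes in general 76.2% were above 0 under the deposited scaling and 49.8% under the second, where 6.03% were called higher. Ddx10, whose yeast counterpart acts in small subunit assembly, had 714, 569, 218 and 258 normalized counts in KO libraries, against 179, 270, 268 and 160 in HET libraries, a log2 fold change of 0.86 ± 0.49 (SE; limma, adjusted p = 0.820). With the second scaling it had 397, 299, 382 and 391 in KO libraries and 218, 276, 234 and 225 in HET libraries. Every KO library then lay above every HET library, with a log2 fold change of 0.62 ± 0.13 (SE; limma, adjusted p = 0.0199). It was called in 4 of the 8 fits without 1 library, with adjusted p from 0.00559 to 0.0748.

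Ddx52, which is outside the rule for named genes and was chosen after its values were seen, had 449, 385, 487 and 380 in KO libraries and 287, 319, 311 and 345 in HET libraries in the second scaling. The groups did not overlap, with a log2 fold change of 0.42 (limma, adjusted p = 0.0475), and the call held in 1 of 8 fits without 1 library. Its yeast counterpart also serves the small ribosomal subunit. Ddx24 and Ddx50, the most abundant of the group, had means of 2613 ± 1705 and 2750 ± 1681 normalized counts in KO and 1739 ± 416 and 1915 ± 456 in HET (SD, n = 4 each). Their second-scaling fold changes were 0.10 and 0.07 (log2), within the spread of the libraries. Ddx55 had the lowest value of the group, at 0.06 under the deposited scaling and -0.18 under the second. Of Ddx18, which is outside the rule for named genes, 55.9% of the 50-base words in its transcripts also occur in other genes, mostly in Gm16433, so its counts are uncertain.

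The 10 helicases of the spliceosome drive its rearrangements from the first recognition of the intron to the release of the product. None was called under the deposited scaling, with log2 fold changes from -0.10 to 0.63, and in the second scaling 1 of 9 tested was called, Dhx15. Dhx15 takes the spent spliceosome apart. It is also outside the rule for named genes and had 1214, 1037, 1141 and 1174 in KO libraries and 884, 816, 838 and 950 in HET libraries in the second scaling. All KO values were higher than all HET values, with a log2 fold change of 0.39 (limma, adjusted p = 0.0471), called in 2 of 8 fits without 1 library. Dhx8, which frees the finished messenger RNA from the spliceosome, lay on the other side. It had 570, 529, 402 and 564 in KO libraries and 696, 625, 657 and 625 in HET libraries in the second scaling. KO values were all lower than HET values, but the fold change of -0.35 (log2) did not pass the test (limma, adjusted p = 0.0983). Under the deposited scaling Dhx8 was at -0.10 with KO libraries 1 and 2 at 1023 and 1007, KO libraries 3 and 4 at 229 and 373, and HET libraries between 444 and 753. Dhx16, needed before the first cut, was at 0.02 under the deposited scaling and -0.22 under the second, called in neither.

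Ddx42 and Ddx46 bind the machinery that recognises the branch site, and were the most abundant of this group. Ddx42 averaged 1681 ± 1096 normalized counts in KO and 1031 ± 265 in HET, and Ddx46 averaged 1337 ± 892 in KO and 962 ± 213 in HET (SD, n = 4 each). The second scaling gave log2 fold changes of 0.21 for Ddx42 and -0.07 for Ddx46, neither called. Without KO library 3 the second scaling called Ddx42 higher (0.32, limma, adjusted p = 0.0398). Over the fits without 1 library its adjusted p ran up to 0.540.

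Helicases of cytoplasmic messenger RNA were 3. Dhx36 resolves four-stranded guanine structures in RNA and DNA, Dhx29, outside the rule for named genes and given without values, helps ribosomes scan structured leaders, and Ddx6 promotes decapping. Dhx36 had 1216, 1179, 301 and 464 normalized counts in KO libraries, against 319, 450, 573 and 348 in HET libraries, a log2 fold change of 0.70 (limma, adjusted p = 0.904). With the second scaling it had 678, 620, 527 and 703 in KO libraries and 387, 459, 500 and 489 in HET libraries. The groups then did not overlap, KO library 3 lying closest to HET library 3, and the log2 fold change was 0.46 ± 0.13 (SE; limma, adjusted p = 0.0464). The call held in 2 of 8 fits without 1 library, those without KO library 2 and without KO library 3. Ddx6 had a fold change of 0.08 under the deposited scaling and -0.16 under the second, with 2376, 3172, 2176 and 2582 in KO libraries and 2512, 2751, 3165 and 3039 in HET libraries in the second.

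Ddx5 and Ddx17 are paralogous coactivators of transcription that also take part in microRNA processing, and Ddx20 (Gemin3) belongs to the complex that assembles spliceosomal particles. Ddx5 had 22046, 26743, 6863 and 9232 normalized counts in KO libraries, against 8194, 11119, 13107 and 8205 in HET libraries. The KO libraries lay on both sides of the HET libraries. Rescaled by abundant genes it had 12282, 14058, 12015 and 13973 in KO libraries and 9938, 11345, 11444 and 11549 in HET libraries. All KO values were then above all HET values, but the fold change of 0.24 (log2) was not called (limma, adjusted p = 0.363). Ddx17 was at 0.15 and -0.09 under the deposited and second scaling. Ddx20 had 389, 277, 131 and 144 normalized counts in KO libraries and 173, 112, 147 and 89.9 in HET libraries, a log2 fold change of 0.74 (limma, adjusted p = 0.839). It was too low for the second fit.

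Ddx1 activates the transfer RNA ligase complex. Under the second scaling it had 1195, 1193, 1213 and 1056 in KO libraries and 904, 950, 971 and 933 in HET libraries. The groups did not overlap, yet the log2 fold change of 0.31 missed the threshold (limma, adjusted p = 0.0790). Of the mitochondrial helicases, Ddx28 serves the mitochondrial ribosome and Dhx30 the mitochondrial RNA granule. Ddx28 had 231, 162, 77.2 and 49.4 normalized counts in KO libraries, against 47.4, 73.8, 90 and 48.6 in HET libraries. The KO values of 77.2 and 49.4 both lay within the HET range of 47.4 to 90. The log2 fold change of 0.80 was not called (limma, adjusted p = 0.745). Ddx28 lies opposite Dus2 on the other strand, and the strand setting of the counting is not given in the sources used here. Dhx30, which overlaps Smarcc1 on the other strand, had log2 fold changes of 0.40 under the deposited and 0.16 under the second scaling, not called.

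The 4 helicases of messenger RNA export, Ddx19a, Ddx19b, Ddx39 and Ddx25, lay between 0.35 and 0.44 (log2) under the deposited scaling, and the 3 tested in the second between 0.11 and 0.20, with none called. Ddx25 is known from male germ cells, and averaged 239 ± 112 normalized counts in KO and 163 ± 27.2 in HET (SD, n = 4 each). Ddx4 (Vasa), the germ line marker, was the lowest member. It had 10.8, 11.6, 34.2 and 23.2 normalized counts in KO libraries, against 11.5, 7.5, 10.3 and 21.9 in HET libraries, and its log2 fold change was 0.55 (limma, adjusted p = 0.915). The highest values stood in KO libraries 3 and 4 and HET library 4, which also had the highest shares of olfactory and vomeronasal receptor reads, 0.315%, 0.285% and 0.236%, where the other 5 libraries had up to 0.171%. The part of this in the Ddx4 values was not tested. Ddx11, a helicase of sister chromatid cohesion, had 53.8, 49.2, 55.1 and 60.1 in KO libraries and 62.8, 65.0, 54.0 and 50.2 in HET libraries, without the high values in KO libraries 1 and 2 that most members had. Its log2 fold change was -0.08, not called.

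Dhx32, for which no role is given here, had the lowest fold change of the members under both scalings. In normalized counts it had 1934, 2344, 741 and 513 in KO libraries, against 1307, 1560, 1670 and 1039 in HET libraries, a log2 fold change of -0.26 (limma, adjusted p = 0.971). The second scaling gave 1078, 1232, 1298 and 777 in KO libraries and 1585, 1592, 1458 and 1462 in HET libraries. Every KO library was then below every HET library, at -0.50 ± 0.16 (log2, SE), but the test did not call it (limma, adjusted p = 0.0689). Without KO library 3 the second scaling called it lower (-0.60, limma, adjusted p = 0.0279). Dhx32 overlaps Bccip on the other strand, so part of its reads could belong to that gene.

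Levels between helicases were compared as normalized counts per kilobase of annotated exon. Ddx5 was far above the rest, with a mean of 2809 per kilobase in KO and 1759 in HET libraries. The next members in the order of the mean over 8 libraries were Ddx6 with 412 in KO and 328 in HET, Ddx17 with 384 in KO and 291 in HET, Dhx32 with 332 in KO and 334 in HET, and Ddx42 with 398 in KO and 244 in HET. The ranges of these 4 over libraries overlapped. These ranges include the general level of each library, so they do not decide the order, and the order within libraries was not tested. Ddx60 had 430 per kilobase in KO and 33.1 in HET libraries. Ddx11 and Ddx4 were the lowest, with 8.23 and 6.62 per kilobase in KO and 8.75 and 4.25 in HET libraries. For Ddx5, 14.6% of its 50-base words are shared with other genes, mostly Gm12183.

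**Figure D4:**
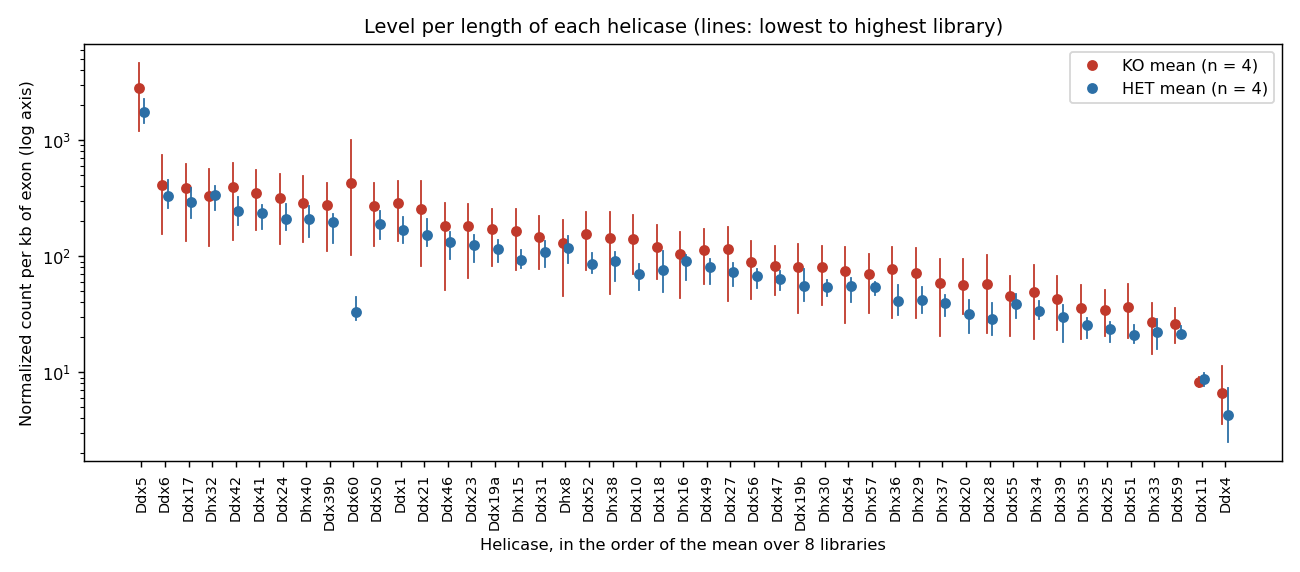
Mean normalized count per kilobase of exon (log axis) of each of the 47 helicases in KO (red) and HET (blue) libraries, n = 4 each, with lines from the lowest to the highest library, in the order of the mean over all 8 libraries. Ddx5 stands highest at 2809 in KO and 1759 in HET, and Ddx60 is the member with separate KO and HET ranges.

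The 47 helicases together took 0.599%, 0.504%, 0.390% and 0.584% of all reads in KO libraries 1 to 4, against 0.412%, 0.440%, 0.414% and 0.424% in HET libraries 1 to 4. KO libraries 1, 2 and 4 were above and KO library 3 below all HET libraries. All reads here include mitochondrial reads, which were 17.4% in KO library 3 and 6.90% to 8.35% in HET libraries. The part of these reads in the low share of KO library 3 was not tested. Relative to abundant genes, the median of the 47 helicases was not low there, at 0.018 (log2) against -0.117 to -0.016 in HET libraries. Exact 95% binomial intervals, which cover counting error only, were no wider than 0.385% to 0.395% in KO library 3, the shallowest. Without Ddx60 the shares were 0.538%, 0.490%, 0.375% and 0.530% in KO and 0.408%, 0.436%, 0.412% and 0.421% in HET libraries, with the same order of KO library 3 below the rest.

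Ratios of paralogous helicases within a library need no scaling, and 4 pairs were compared by exact two-sided permutation tests, where 4 against 4 libraries allow no p below 0.0286. The ratio of Ddx5 to Ddx17 was 5.05, 5.59, 6.64 and 5.96 in KO libraries and 4.32, 4.58, 4.43 and 5.07 in HET libraries. Only KO library 1 and HET library 4 overlapped, with a log2 difference of 0.33 (exact permutation p = 0.0571, adjusted over the 4 pairs 0.229). Ddx21 over Ddx50, a nucleolar pair, differed by 0.16 (log2; exact permutation p = 0.429, adjusted 0.771). Ddx19a over Ddx19b differed by 0.07 (log2; exact permutation p = 0.600, adjusted 0.771), and these genes share 28.1% and 12.4% of their 50-base words with each other, so their counts are not fully separate. Ddx39 over Ddx39b differed by 0.06 (log2; exact permutation p = 0.771, adjusted 0.771). Exons of Ddx17 overlap Kdelr3 on the other strand, and those of Ddx39 overlap Adgre5, so part of their reads could belong to those genes. None of the 4 ratios passed the threshold.

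**Figure D5:**
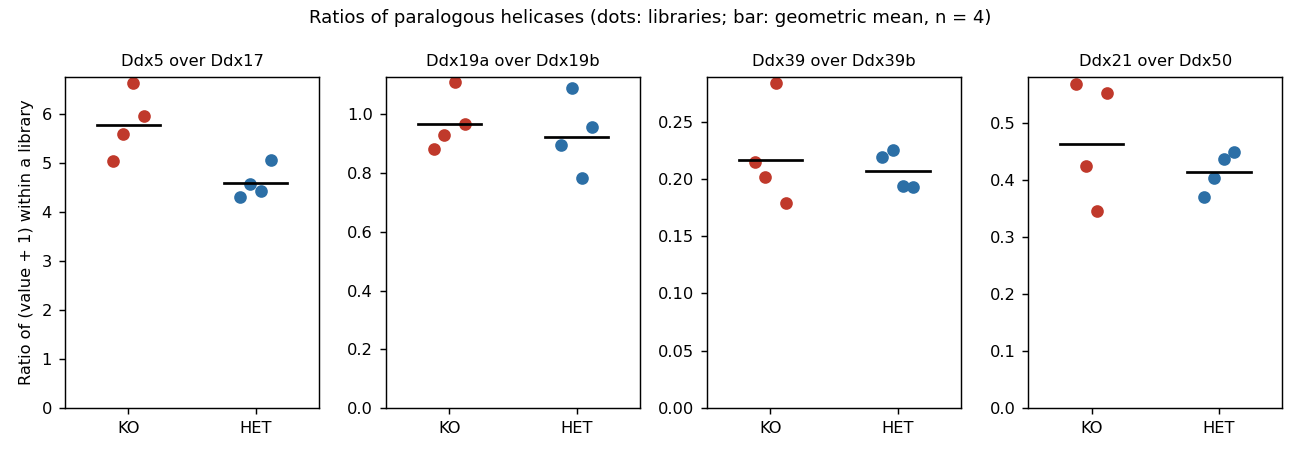
Ratio of (value + 1) of 4 pairs of paralogous helicases within each KO (red, left) and HET (blue, right) library, with bars for the geometric mean (n = 4 each). The Ddx5 over Ddx17 ratio runs from 5.05 to 6.64 in KO and from 4.32 to 5.07 in HET libraries, and the groups overlap in all 4 pairs.

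RNA helicases outside the members were listed for comparison, 26 of which were tested. limma called 2 higher and 0 lower under the deposited scaling, with 3 and 0 unadjusted, edgeR called 2 and 0, and DESeq2 3 and 0. The shares of all genes called higher were 0.921% in limma (4.05% unadjusted), 0.673% in edgeR and 1.25% in DESeq2. All 3 tools called Ifih1, a sensor of long double-stranded RNA, and Dhx58 (LGP2), a regulator of that sensor, and DESeq2 also called Ddx58 (adjusted p = 0.00601). Ifih1 had 7496, 1601, 507 and 1530 normalized counts in KO libraries, against 161, 230, 211 and 198 in HET libraries (log2 fold change 3.13, limma, adjusted p = 1.96e-06). Dhx58 had 2827, 905, 448 and 849 in KO libraries and 167, 155, 154 and 134 in HET libraries (log2 fold change 2.7, limma, adjusted p = 3.51e-05). Under the deposited scaling both had their highest value in KO library 1 and their lowest KO value in KO library 3, as Ddx60 did. In the second scaling the lowest KO value of all 3 genes stood in KO library 2, with 842 for Ifih1, 476 for Dhx58 and 1219 for Ddx60, against 888, 784 and 1562 in KO library 3. Ddx58 was at 1.65 (limma, adjusted p = 0.275) and was called in the second scaling at 1.41 (limma, adjusted p = 0.0148). With Ifih1 and Dhx58, it made 3 of 22 tested called higher there and 0 lower, beside 6.03% and 4.24% of all genes. Znfx1, an interferon-induced helicase at mitochondria, was at 1.08 (limma, adjusted p = 0.835) and was not called in the second scaling either.

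Of 57 listed cofactors that bind and regulate these helicases, 55 were tested and limma called 0, with 3 higher and 0 lower unadjusted. edgeR and DESeq2 called 0 as well, with 7 and 9 higher and 0 lower unadjusted. The unadjusted shares over all genes were 4.05% higher and 2.7% lower in limma, 4.75% and 1.91% in edgeR, and 8.4% and 0.589% in DESeq2. The smallest p belonged to Gpatch4, a G-patch protein, with 395, 234, 70.6 and 148 normalized counts in KO libraries and 83.3, 77.5, 78.0 and 55.9 in HET libraries. KO library 3 lay within the HET range, at a log2 fold change of 1.27 (limma, adjusted p = 0.196). Magohb and Cwc22, of the exon junction complex and its assembly, and Gemin2 had log2 fold changes of 0.94, 1.18 and 0.77, with limma adjusted p from 0.521 to 0.754. In the second scaling limma called 5 of 46 cofactors higher and 0 lower, which were Rbm8a, Nol8, Cwc27, Sarnp and Lsm14a, where 6.03% of all genes were called higher. Leaving out 1 library moved this count to 1 without HET library 1, 2 or 3, to 2 without HET library 4 or KO library 1, to 4 without KO library 4 and to 7 without KO library 2 or 3. Rbm8a, of the exon junction core, was at 0.60 (limma, adjusted p = 0.0115).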

How the data were processed

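RNA of 8 libraries of FACS-sorted beta cells was sequenced with a stranded total RNA kit for pico input (Takara), per the labels' protocols. Tools listed in the submitters' processing notes are STAR 2.7.3a, HTSeq, UMI-tools, DESeq2 1.28.1 and FastQC 0.11.8, with the build mm10. Annotation, strand setting and removal of duplicates are not given in the sources used here. The deposited signal values are gene counts that the authors divided by 1 size factor per library. Dividing by the smallest step of a library turned 100% of its values into whole reads, within 0.001.

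The 21498 genes whose mean reached 10 were tested with limma 3.58.1 (R 4.3.3) on log2(value + 1), with a trend, robust settings and genotype as the only term, two-sided, Benjamini-Hochberg adjusted over all genes at a threshold of 0.05. A fold change on this scale understates that of a low gene. limma with the deposited scaling used 1 spread for genes of like level at the median gene (median total degrees of freedom 128988), against a median of 11.1 in the second scaling. edgeR 4.0.16 and DESeq2 1.42.0 were run on recovered reads as alternatives. No 2 replicates agreed within counting noise (chi-square per degree of freedom at least 3.15 in HET and 24.6 in KO). Annotation was GENCODE M21 of mm10, matched for all 47 members. Scripts were tested on simulated counts with the same relative spread in both genotypes and no shift in general level between libraries. That test therefore does not cover the wide spread of the KO libraries here.

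The members, lists and alternatives were chosen with earlier results of these data known. Named members were those called, the 5 largest and 5 lowest fold changes, the 5 highest levels and levels per kilobase, those at the limit of the mean, the pairs and the 2 most abundant of each role, and for the other lists the 4 smallest p and those called. Other members named are marked as outside this rule or as chosen after their values were seen.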

Additional observations from a re-analysis of the deposited data

Results flagged for a closer look

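Of 62 groups of 4 libraries examined, 2 held a library far from the other 3, where chance gives about 1 in 20. Ddx60 had 390 normalized counts in HET library 2, where the other HET libraries had 245 to 265, and all KO libraries stayed above it. Dhx16 had 257 normalized counts in HET library 4, where the other HET libraries had 393 to 416.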

How the results depend on the processing

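Under the deposited scaling the count of 1 helicase higher and 0 lower held with both other pseudocounts, both other filters on low values, TMM and quantile scaling, array weights, limma without trend and robust settings, edgeR and DESeq2. It changed to 5 higher in the second scaling (abundant genes with their TMM factors), to 43 with libraries of both sexes only and to 0 with both together. All genes called then numbered 404 higher and 284 lower, 8538 and 2049, and 0 and 0, against 198 and 5 in the deposited scaling. Cofactors called numbered 5 in the second scaling, 54 with both sexes only and 1 with quantile scaling, and other helicases 22 higher and 2 lower with both sexes only and 0 with both together. Calls over all genes numbered 320 higher and 138 lower with quantile scaling, 127 and 1 without trend and robust settings, and lower calls 3 with DESeq2, 8 with TMM, 8 with edgeR, 18 with array weights and 2 at a mean of at least 50. TMM scaling moved the median of all genes by -0.21 (log2). The cause was not tested.

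Fold changes of helicases not called in the deposited scaling turned sign in several settings. Under the second scaling Ddx17, Ddx46, Ddx55, Ddx6 and Dhx16 were at -0.093, -0.069, -0.18, -0.16 and -0.22, with TMM at -0.070, -0.045, -0.16, -0.14 and -0.20, with array weights at -0.11, -0.099, -0.18, -0.15 and -0.27, and with quantile scaling at -0.0068, -0.059, -0.28, -0.069 and -0.28. With edgeR Ddx17, Ddx55, Ddx59, Ddx6 and Dhx16 were at -0.022, -0.15, -0.0060, -0.093 and -0.18, and with quantile scaling Ddx59 at -0.041. DESeq2 had Dhx8 at 0.14. With both sexes only Ddx4, Dhx32 and Dhx8 were at -0.092, 0.61 and 0.78 and the Ddx19a to Ddx19b ratio at -0.044, and with both together Ddx55, Ddx6 and Dhx16 at -0.25, -0.13 and -0.099.

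Leaving out 1 library, under either scaling, gave 1 to 5 helicases higher and 0 to 1 lower, 105 to 621 genes higher and 1 to 557 lower, 0 to 7 cofactors higher and 0 to 1 lower, and 2 to 5 other helicases higher. Ddx10, Ddx52, Dhx15 and Dhx36 each lost their call in the second scaling without KO library 1 and without HET libraries 1, 3 or 4. Fold changes ran from -0.18 to 0.56 for Ddx17, -0.15 to 0.68 for Ddx46, -0.23 to 0.37 for Ddx55, -0.30 to 0.46 for Ddx6, -0.29 to 0.37 for Dhx16, -0.011 to 0.69 for Ddx39b, -0.60 to 0.13 for Dhx32 and -0.41 to 0.31 for Dhx8. The ratio of Ddx19a to Ddx19b ran from -0.011 to 0.15 and that of Ddx39 to Ddx39b from -0.066 to 0.15.

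Libraries with the same replicate number correlated at 0.22, -0.05, 0.13 and 0.28 over 6697 genes, and 3 of 4 KO libraries matched their own number best. The labels do not say that equal numbers mark a pair, so the main fits had no replicate block. Whether the samples are paired is not known. The replicate block gave 182 genes higher and 5 lower, with 1 helicase higher and 0 lower. With the second scaling the block gave 499 higher and 439 lower, 3 helicases, 5 cofactors and 4 other helicases higher. The 3 were Ddx60, Ddx10 and Dhx36 (limma, adjusted p = 0.0122, 0.0203 and 0.0466), while Dhx15 and Ddx52 had adjusted p of 0.0680 and 0.0583. In that fit the fold changes placed Ddx17, Ddx46, Ddx55, Ddx6 and Dhx16 at -0.093, -0.069, -0.18, -0.16 and -0.22. Depth limits the low members, Ddx4 having 6 to 39 reads a library, and 10 of the 47 helicases were below the mean of 200 that the second scaling needed.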
